A study of Homo sapiens with 43 samples.

Results

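The replication-dependent histone genes supply the bulk of the histone protein that packs newly copied DNA. They were taken from the deposited gene table by their current symbols: H1-1 to H1-6, and every symbol made of H2AC, H2BC, H3C or H4C followed by a number, pseudogenes left out. The rule found 64 of the 20052 genes, of which 6 encode linker histone H1, 15 H2A, 17 H2B, 12 H3 and 14 H4. H2AC18 and H2AC19 were matched through their older cluster names HIST2H2AA3 and HIST2H2AA4, and the others by symbol. On the GRCh38 build 50 members lie on chromosome 6, 13 on chromosome 1, and 1, H4C16, on chromosome 12. Another 5 symbols that fit the rule, H2AC1, H2AC7, H2BC1, H3C4 and H4C7, were not analysed here.

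Nucleosomes wind DNA around an octamer of the core histones H2A, H2B, H3 and H4, and H1 binds the DNA that enters and leaves it. The clustered genes of both kinds are transcribed mainly in S phase under the coactivator NPAT. Most of their mRNAs carry no poly(A) tail: they end just past a short stem-loop, bound by SLBP, that governs their processing, translation and decay. Libraries of total RNA, such as these, keep such transcripts, which selection for poly(A) would largely lose.

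The RNA came from HMC3, an immortalised human line that is sold as microglia. Day 3 libraries followed 3 days with dexamethasone at 1 or 0.01 µM, hydrocortisone at 10 or 0.01 µM, the ethanol vehicle matched to each of these 4 doses, or untreated medium, with 3 libraries in each of these 9 groups. Day 6 libraries came from cells replated on day 3 and grown without hormone: 3 libraries for each hormone dose and a single one for each vehicle, which makes 43 libraries in 17 groups. Dexamethasone is a synthetic relative of hydrocortisone that differs by a fluorine atom, one more methyl and one more double bond in the first ring. The design asks which genes the hormones change beyond the alcohol vehicle and whether dose matters. The labels describe flasks harvested singly and say nothing more of how separate the replicates were, and p-values therefore describe the spread among these flasks, part of which may be technical.

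Libraries held 7638840 to 24426643 counts, and ribosomal RNA genes took 9.90 to 94.9% of them (median 29.3%). The share was over 75% in 7 libraries, each in a different group. Members together received 9022 to 154163 counts per library, or 6277 to 9717 CPM (counts scaled to a common library total) when ribosomal RNA was left out (7272 to 9717 in those 7 libraries and 6277 to 9572 in the other 36). As a check of the labels, the glucocorticoid target TSC22D3 changed on day 3 by 3.99 (dexamethasone 1 µM), 3.05 (0.01 µM), 3.26 (hydrocortisone 10 µM) and 0.11 (0.01 µM) on the log2 scale, with the last not past the test. FKBP5, another target, gave 1.44, 1.23, 1.22 and −0.11. Microglia markers were near 0: of 12 listed, 3 were analysed, none had a median over 1 CPM without ribosomal RNA, and CSF1R led with 0.273. Of 10 fibroblast and pericyte markers 8 were analysed and 6 had a median over 1 CPM, with COL1A1 at 1678.

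The 3′ end element that sets these mRNAs apart could be read in part of the members. A stretch of 16 bases that begins with GG, ends with CC and has 6 paired positions (G-T pairs allowed) around a loop of 4 that opens with TT and is closed by a T-A pair was searched for on the sense strand of the GENCODE v29 transcripts. It occurred in transcripts of 30 of the 62 members that v29 holds and in 0.161% of all 206694 transcripts. The 5 versions found are printed below, with the loop in capitals, because they divide the members largely by class.
in 17 members of H2A, H2B and H3: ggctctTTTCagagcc
in H2BC4, H2BC5, H2BC7 and H3C8: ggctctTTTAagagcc
in H2AC11: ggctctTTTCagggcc
in H4C2, H4C5, H4C8, H4C11 and H4C16: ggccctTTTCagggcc
in H4C9, H4C14 and H4C15: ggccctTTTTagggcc
All 8 H4 members with a match carried ggccct on the left arm, and none of the other members did. Many v29 models of the remaining members end at or near the stop codon, so a missing match, as for all 6 H1 genes, says only that the letters are not in those models. A transcript with AATAAA in its last 40 bases, the signal of ordinary polyadenylation, was annotated for 21 members, and 19 of these also held the stem-loop.

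Promoters were taken from RefSeq on GRCh38.p14 as 250 bases before to 50 after each start, which gave 59 of the 64 members and 27305 promoters in all. Motifs were counted on both strands. AAACACA, the H1 box, was in 6 of 6 H1 promoters and in 5.76% of all promoters. ATTTGCAT, the octamer bound by OCT1, was in 9 of 14 H2A and 13 of 17 H2B promoters, in none of the H1, H3 or H4 promoters, and in 1.8% of all. CCAAT, the CCAAT box, was in every H1, H2A, H2B and H3 promoter, in 3 of 12 for H4, and in 35.7% of all. TATAAA, the TATA box, was in 66.1% of the member promoters and in 12% of all. AGAACA, a half-site that the glucocorticoid receptor can bind, was in 30.5% of member promoters and 14.9% of all. The full palindrome, this half-site and its reverse complement 3 bases apart, was in no member promoter and in 1 of the 27305. A match to letters is a description and not a shown binding site. The 150 bases before the start are shown for 4 genes that recur in the results (H1-2, H1-4, H1-5 and H2BC15), and for H2BC12, the H2B gene of highest level, with matches on either strand to the H1 box, the octamer, the TATA box and the CCAAT box in capitals.
H1-2 (chr6:26056471-26056620, minus strand): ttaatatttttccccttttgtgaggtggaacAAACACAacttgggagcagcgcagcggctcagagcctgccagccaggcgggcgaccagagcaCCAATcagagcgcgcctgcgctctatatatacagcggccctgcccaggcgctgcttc
H1-4 (chr6:26156179-26156328, plus strand): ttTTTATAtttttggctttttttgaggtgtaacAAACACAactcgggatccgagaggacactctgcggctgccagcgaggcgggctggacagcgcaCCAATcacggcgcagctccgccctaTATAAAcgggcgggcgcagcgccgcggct
H1-5 (chr6:27867589-27867738, minus strand): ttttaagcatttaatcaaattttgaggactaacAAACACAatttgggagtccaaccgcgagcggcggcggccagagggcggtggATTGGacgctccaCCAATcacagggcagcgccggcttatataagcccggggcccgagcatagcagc
H2BC12 (chr6:27146859-27147008, minus strand): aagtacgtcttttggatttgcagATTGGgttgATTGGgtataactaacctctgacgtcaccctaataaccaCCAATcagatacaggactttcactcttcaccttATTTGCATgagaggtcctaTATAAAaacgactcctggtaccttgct
H2BC15 (chr6:27838419-27838568, plus strand): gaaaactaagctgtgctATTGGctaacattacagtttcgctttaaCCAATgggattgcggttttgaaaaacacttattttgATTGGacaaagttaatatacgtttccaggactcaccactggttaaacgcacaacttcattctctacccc
The 3 H1 stretches each hold 1 AAACACA, followed by CCAAT nearer the start. H2BC12 shows the octamer directly ahead of TATAAA, and H2BC15 has 3 copies of CCAAT with neither the octamer nor TATAAA.

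Levels below are in CPM of the TMM-scaled library, ribosomal counts included, and per kb of exon where genes are compared. The core classes H4 and H2B held the largest shares of the members' summed CPM, 24.1 and 23.1%, ahead of H2A (19.1%), H1 (18.8%) and H3 (14.95%). Near-identical pairs in H4, H2A and H3, described below, share reads that may enter these sums more than once. The order of the class shares is therefore uncertain. The sum of all members ran from 3211 CPM in hydrocortisone 10 µM replicate 4 of day 3 to 5559.6 CPM in replicate 1 of its vehicle, with a median of 4255. These extremes differed 1.73-fold and belong to the 2 sides of 1 comparison.

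**Figure D1:**
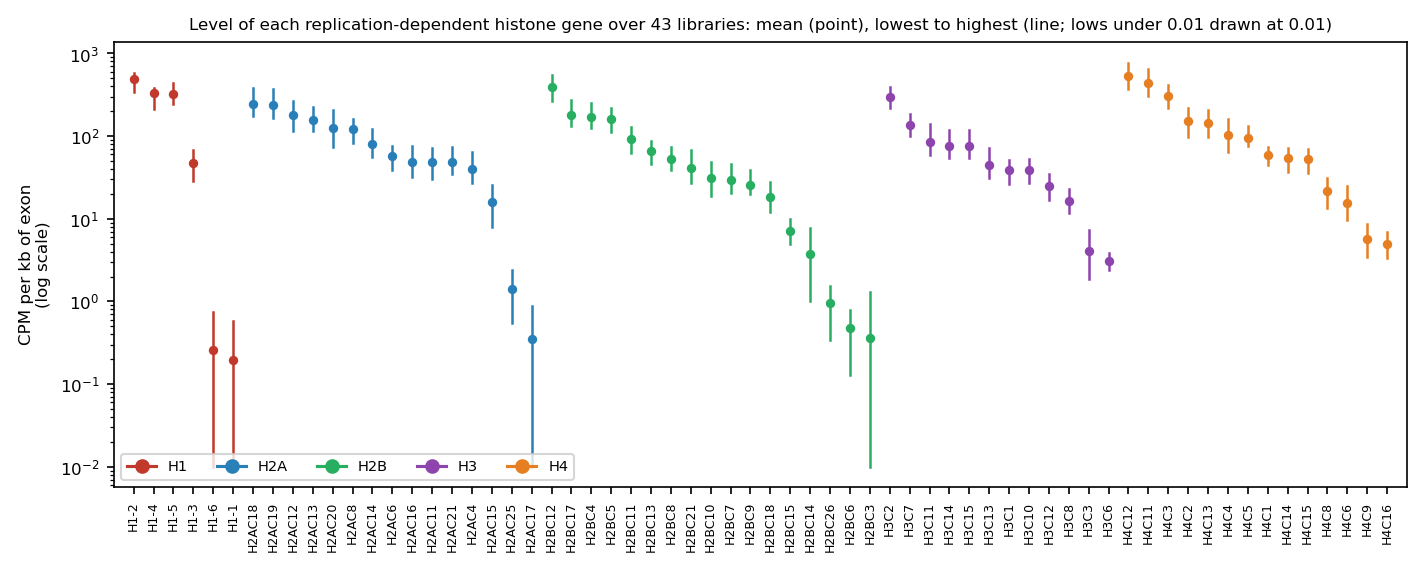
Level of each of the 64 members in CPM per kb of exon on a log scale, with the mean over 43 libraries as a point and the lowest to highest library as a line (values under 0.01 drawn at 0.01). The members span from 0.196 (H1-1) to 531 (H4C12), and colours mark the 5 classes.

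Among the linker histones, H1-2 (chromosome 6, 26055787 to 26056428, minus strand, GENCODE v29) had the highest level, 484 ± 58.4 CPM per kb (mean ± SD over 43 libraries). H1-4 (26156354 to 26157107, plus strand) and H1-5 (27866849 to 27867529, minus strand) stood at 328 ± 36.04 and 326 ± 37.5, a gap smaller than their spread. H1-3 was far lower at 47.5 CPM per kb. H1-6, known as the testis form, and H1-1 were at 0.256 and 0.196, and H1-1, H2AC17 and H2BC3 had too few counts to be tested, which left 61 members.

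Among the core histones, H4C12 (531 ± 96.5 CPM per kb) and H4C11 (437 ± 80.7) led H4, followed by H4C3 (307). H2BC12 led H2B with 396 ± 62.7, then H2BC17 with 182 and H2BC4 with 172. H3C2 led H3 with 300.2 ± 41.8 and H3C7 followed with 137. H2AC18 (245 ± 43.9) and H2AC19 (236 ± 43.2) led H2A. The order within the top 3 over all classes, H4C12, H1-2 and H4C11, is not fixed, since each gap is within 1 SD. Lengths come from annotated exons, and models that stop at the coding sequence raise the value per kb.

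Several members are near-identical and share reads. Over the 43 libraries, the squared difference of 2 genes' counts over their sum should average about 1 if they were counted independently. It was 0.108 for H3C14 and H3C15, 0.111 for H4C14 and H4C15, 0.195 for H2AC18 and H2AC19, and 0.552 for H4C11 and H4C12, the 4 lowest of 308 pairs within a class. Values of these 8 genes are therefore uncertain one by one, and each pair counts as little more than 1 measurement. Sums and shares of H2A, H3, H4 and all members hold both genes of each pair and may count shared reads more than once. H2BC15 needs another caution: its annotated exons, 5477 bases in all, cover the whole of H2AC15 (393 bases) on the opposite strand. Whether counting used strand is not given in the sources used here, so it is not known whether reads of H2BC15 and H2AC15 were kept apart.

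Members moved together between libraries of a group. For the 54 members with a mean of at least 5 CPM, deviations of log2(CPM + 0.5) from the group mean had a median pairwise r of 0.67 over 39 libraries. The median was 0.70 between core genes, 0.70 among H1 genes and 0.41 between H1 and core genes. These r are descriptions, since all genes of a library share its scaling and depth. The spread within groups was smaller for the 4 H1 genes (median SD 0.13, range 0.11 to 0.19) than the median of any core class, which lay between 0.21 for H3 and 0.26 for H2A. H1-2, H1-4 and H1-5 are also the members of highest mean CPM (311, 247 and 222). H1-3, at 31.6 CPM, had the largest SD of the 4. The part of level in this difference was not tested. H2BC15 and H2AC6 had the lowest SDs of their classes, 0.15 and 0.16.

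**Figure D2:**
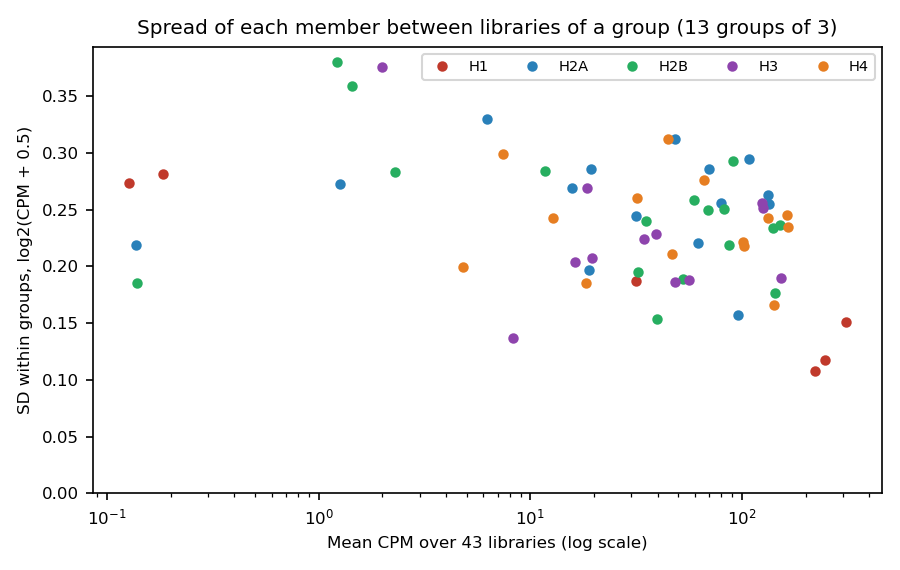
SD of log2(CPM + 0.5) between libraries of a group (vertical axis) against mean CPM on a log scale (horizontal axis), 1 point per member, over 13 groups of 3 libraries. H1-5 and H1-4 lie lowest, at 0.11 and 0.12. No core gene reaches their mean CPM (222 and 247), the highest being H4C12 at 166.

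Across the same 39 libraries, the deviation of the summed members had an r of 0.19 (rho 0.16) with that of 31 DNA replication genes and −0.44 (rho −0.45) with that of 20 G2/M genes. The r was 0.28 (rho 0.30) with the ribosomal RNA share and 0.45 (rho 0.49) with the mitochondrial share of the other counts. No p is given for these descriptions, and the part of either share in the results below was not tested. In bulk RNA, a smaller fraction of cells in S phase and less histone mRNA per cell cannot be told apart.

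No member passed the test between ethanol vehicle and medium. Against medium on day 3, the mean of the 4 vehicle groups called 0 of 61 members (0% of all 16816 genes tested were called) by edgeR's quasi-likelihood test with a Benjamini-Hochberg adjusted p below 0.05, the rule used throughout. DESeq2 called 0, and 5 members had an unadjusted p under 0.05. The median log2 difference was 0.14 for the members, 52 of 61 of them with higher estimates, and 0.00 for all genes. Members that move together are not separate observations. Between vehicles of day 6 and day 3 edgeR called 0 of 61 (0.505% of all genes), DESeq2 0, and 1 had an unadjusted p under 0.05, with a median of 0.01.

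Dexamethasone at 1 µM lowered 3 abundant linker histone genes and 1 H2B gene on day 3. Against its vehicle 4 of 61 members fell and none rose, where 22.6% of all genes were called (12.3% lower, 10.3% higher). The members' share, 6.56%, is below that background. H1-5, H1-2 and H1-4 were 1.32-, 1.26- and 1.21-fold lower, while no H2A, H3 or H4 gene passed. The median log2 change was −0.27 for 5 H1 genes and −0.07 for 56 core genes. The median SE was 0.11 for H1 and 0.21, 0.19, 0.16 and 0.19 for H2A, H2B, H3 and H4. A change of equal size thus passes less readily in a typical core gene.

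H1-5 measured 168, 189 and 189 CPM with dexamethasone 1 µM and 230.5, 258 and 232 CPM in its vehicle. Every hormone library lay below every vehicle library, and medium gave 227, 255 and 234 CPM. The log2 change was −0.40 (SE 0.08, edgeR adjusted p = 0.000145), and it stayed past the threshold in all 10 other settings and without any single one of the 6 libraries.

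H1-4 stood at 233, 222 and 229 CPM against 277, 279 and 269 in the vehicle. Here too the groups did not overlap, and the log2 change was −0.27 (SE 0.08, edgeR adjusted p = 0.0165). H1-2 stood at 272, 271 and 262 CPM against 313, 373 and 333, with a change of −0.34 (SE 0.11, edgeR adjusted p = 0.0252). H1-4 missed the threshold with medium as the control (−0.20, adjusted p = 0.0928). H1-2 missed it without any one of 4 libraries, at most without vehicle replicate 2 (−0.27, adjusted p = 0.144).

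H2BC15 (chromosome 6, 27837760 to 27865798, plus strand), a core histone gene that has spliced annotated forms, measured 27.1, 35.01 and 29.9 CPM with the hormone. Its vehicle gave 41.8, 42.2 and 44.0 CPM, so the groups did not overlap (log2 change −0.48, SE 0.11, edgeR adjusted p = 0.00125). Medium libraries, at 34.6, 42.7 and 35.3 CPM, reached down to the highest hormone library, and with medium as control the change was −0.29 (adjusted p = 0.0559). H2AC15, whose exons lie within those of H2BC15, gave −0.08 (95% interval −0.61 to 0.46, adjusted p = 0.873).

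Summed over the class, H1 stood at 702, 711 and 709 CPM with dexamethasone 1 µM and at 853, 948 and 865 CPM in its vehicle. The H2A sum covered 721 to 949 CPM with hormone and 753 to 916 with vehicle, and H3 554 to 720 against 618 to 729, both overlapping. H2B, at 898 to 993 against 966 to 1110, and H4, at 937 to 1077 against 1031 to 1221, overlapped as well. The group mean was lower with hormone for H2B, H3 and H4 and higher for H2A. The H1 sums of all 12 vehicle libraries of day 3 reached down to 676 CPM, below the hormone group. Without dexamethasone replicate 3 or without vehicle replicate 2 the call count was 2, and fitted on these 6 libraries alone it was 13, with 28.9% of all genes called in that fit.

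**Figure D3:**
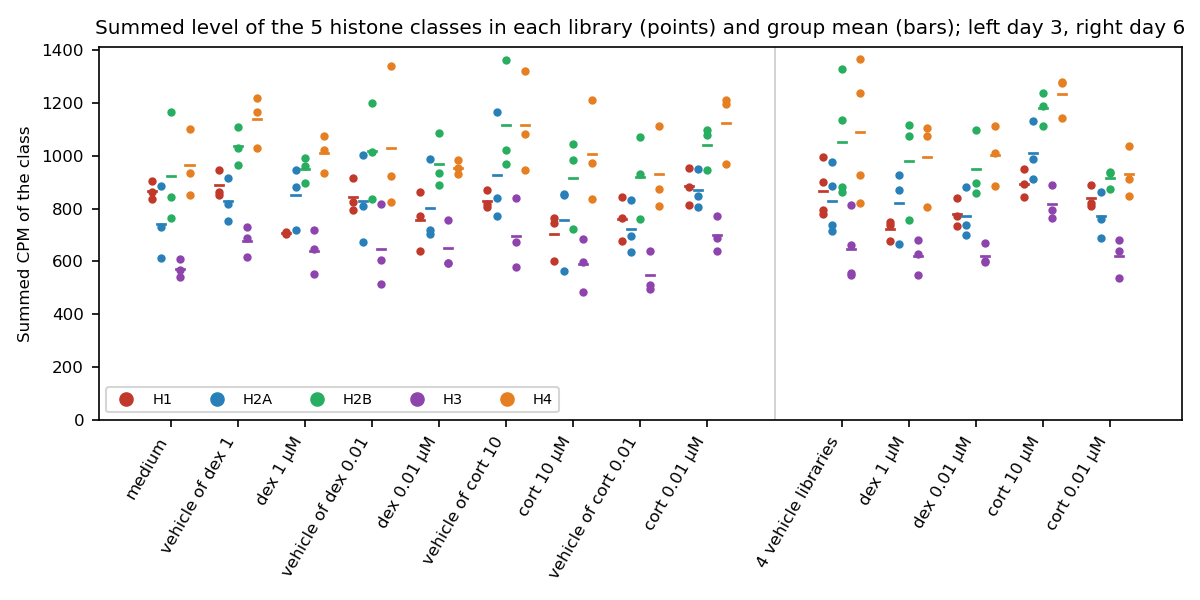
Summed CPM of the H1, H2A, H2B, H3 and H4 genes in each library (points) with the group mean (bars), day 3 on the left and day 6 on the right. The H1 points of dexamethasone 1 µM on day 3 lie between 702 and 711, below the 853 to 948 of its vehicle.

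At 0.01 µM, dexamethasone lowered 1 of 61 members, H2BC26, where 14% of all genes were called (7.84% lower, 6.14% higher). H2BC26 is an H2B gene of the small cluster on chromosome 1 (228458107 to 228460470) with a mean of 2.29 CPM. It measured 1.81, 1.198 and 1.96 CPM with hormone and 2.36, 2.36 and 3.497 in its vehicle, a narrow gap between groups (log2 change −0.77, SE 0.27, edgeR adjusted p = 0.0490). With 1 µM its change was 0.35 (95% interval −0.17 to 0.87). The call was lost in 6 of 10 other settings and without any one of 4 libraries, among them vehicle replicate 3 (−0.55, adjusted p = 0.254). The number of members called was 0 without vehicle replicate 1, 3 without vehicle replicate 3 and 2 without hormone replicate 3.

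H1-5 at this dose gave 199, 220.3 and 170.2 CPM against 217, 218 and 251, a change of −0.22 (95% interval −0.38 to −0.06) that missed the threshold (adjusted p = 0.0566). The lowest value, 170.2 CPM, came from hormone replicate 3, where 94.9% of counts were ribosomal RNA and members received 9022 counts. That library also gave the 1.96 CPM of H2BC26. H1-4 changed by −0.15 (−0.32 to 0.02), H1-2 by −0.13 (−0.36 to 0.09) and H2BC15 by −0.28 (−0.50 to −0.05). The difference between the 2 dexamethasone doses, each corrected for its vehicle, passed for 0 of 61 members by edgeR (0.0476% of all genes) and by DESeq2, with 2 at an unadjusted p under 0.05. For H1-5 it was −0.18 (95% interval −0.41 to 0.05).

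Hydrocortisone at 10 µM lowered 5 of 61 members and raised none, where 13.1% of all genes were called (7.51% lower, 5.57% higher). They were the linker genes H1-4 and H1-5 and the core genes H2BC15, H2AC6 and H2AC21. The median log2 change of the members was −0.25, against 0.01 for all genes, and 51 of 61 had lower estimates, as had 47.9% of all genes. Members move together between libraries of a group, so the common sign is not 61 separate observations. The summed members were 4153, 4561 and 3211 CPM with hormone and 5559.6, 4075 and 4438 CPM with vehicle, which overlap. By class the median was −0.22 for H1, −0.34 for H2A, −0.23 for H2B, −0.28 for H3 and −0.14 for H4.

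H2BC15 went from 54.4, 41.0 and 45.4 CPM in the vehicle to 33.5, 33.7 and 26.9 CPM with hormone. The groups did not overlap, and the log2 change was −0.58 (SE 0.11, edgeR adjusted p = 0.000189). Against medium it was −0.26 (adjusted p = 0.108), since the vehicle stood above medium here. H2AC15 and its neighbour H2AC16 gave −0.55 (95% interval −1.09 to −0.02) and −0.54 (adjusted p = 0.127), neither past the threshold.

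H1-4 measured 220.0, 216 and 162 CPM with hydrocortisone and 263, 237 and 239 CPM with vehicle (log2 change −0.31, SE 0.08, edgeR adjusted p = 0.0104). H1-5 measured 212, 207 and 169.7 against 241, 223 and 226 (−0.23, SE 0.08, edgeR adjusted p = 0.0462). Neither pair of groups overlapped, and in both genes replicate 4 of the hormone was the lowest. Without that replicate H1-4 stood at −0.18 (adjusted p = 0.215).

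H2AC6 (chromosome 6, 26124145 to 26139116), an H2A gene with annotated polyadenylated forms, gave 99.95, 89.2 and 64.9 CPM against 125, 99.5 and 102 (−0.36, SE 0.11, edgeR adjusted p = 0.0288). H2AC21 gave 18.9, 18.9 and 13.9 CPM against 29.1, 18.3 and 22.5 (−0.43, SE 0.14, edgeR adjusted p = 0.0391). In both the groups overlapped, and the exons of H2AC21 share 27 bases with BOLA1 on the opposite strand. The extremes were hydrocortisone replicate 4 and vehicle replicate 1, and the latter held 91.4% ribosomal RNA counts.

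Without either of these libraries 1 member was called instead of 5, H2BC15 by name, and without vehicle replicate 3 the count was 3. Against medium H2AC6 changed by −0.06 (adjusted p = 0.794), and the estimate for H2AC21 turned to 0.02 (adjusted p = 0.954). The part of the ribosomal share in these results was not tested further.

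At 0.01 µM, hydrocortisone changed no member past the threshold. edgeR called 0 of 61 (0% of all genes) and DESeq2 0, with 9 members and 2.36% of all genes at an unadjusted p under 0.05. All 61 estimates lay above 0, from 0.08 to 0.49, with a median of 0.24 against 0.00 for all genes. H1-4 gave 0.24 (95% interval 0.07 to 0.41, adjusted p = 0.9997), from 284, 266 and 261 CPM with hormone and 229, 194 and 266 with vehicle. Since members move together between libraries of a group, the common sign is not 61 separate observations. The summed members were 4989, 4696 and 4175 CPM with hormone and 3780.3, 3377 and 4505 CPM with vehicle, which overlap.

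**Figure D4:**
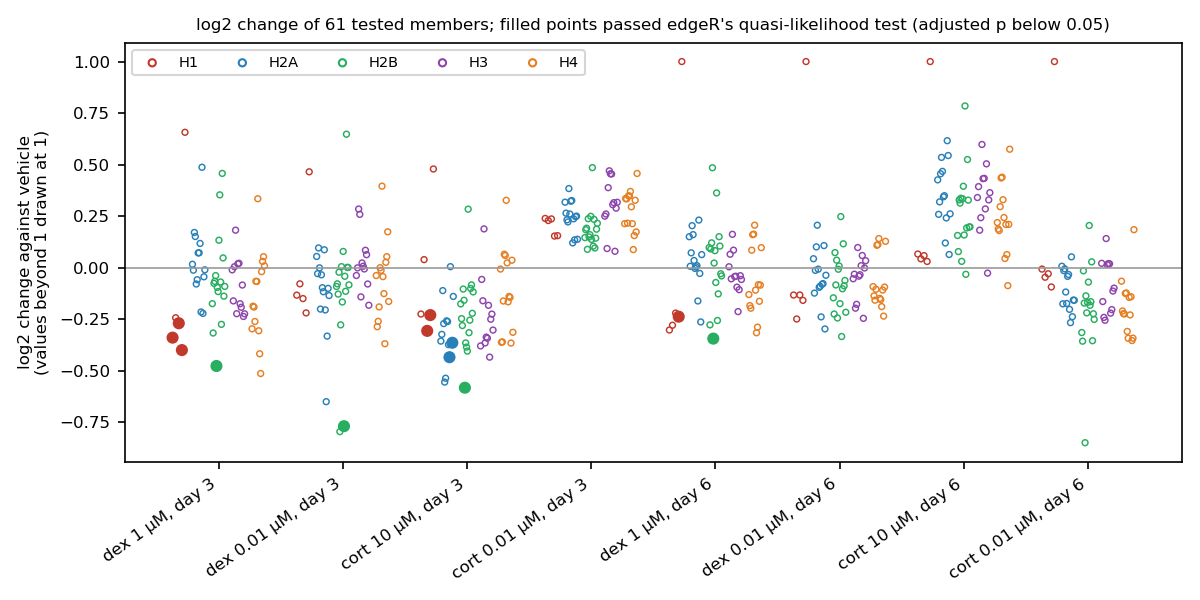
log2 change of the 61 tested members (points, by class) for each hormone dose against vehicle on day 3 and day 6, with filled points for those past edgeR's test and values beyond 1 drawn at 1. Filled points appear below 0 for dexamethasone 1 µM on both days (4 and 2) and for 0.01 µM dexamethasone (1) and 10 µM hydrocortisone (5) on day 3.

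The 2 hydrocortisone doses differed in 4 of 61 members after each was corrected for its vehicle (4.09% of all genes, 2.36% lower and 1.73% higher). The difference of 10 µM from 0.01 µM was −0.73 for H2BC15 (SE 0.16, edgeR adjusted p = 0.00223), −0.61 for H2AC6 (SE 0.16, adjusted p = 0.0191), −0.54 for H1-4 (SE 0.12, adjusted p = 0.00279) and −0.38 for H1-5 (SE 0.11, adjusted p = 0.0365). The members' median difference was −0.46, and 60 of 61 estimates were negative, which again are not separate observations. Both doses entered with opposite signs for these genes, so part of each difference comes from estimates above 0 at 0.01 µM. Without hydrocortisone 10 µM replicate 4, its vehicle replicate 1 or replicate 2 of the 0.01 µM vehicle the count was 2, and without 0.01 µM replicate 4 it was 7.

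The hormones could be compared at 1 matched dose, 0.01 µM, on each day. On day 3, dexamethasone differed from hydrocortisone in 3 of 61 members (4.98% of all genes, 2.91% lower and 2.07% higher). The difference was −1.25 for H2BC26 (SE 0.37, edgeR adjusted p = 0.0390), −0.37 for H1-5 (SE 0.11, adjusted p = 0.0409) and −0.39 for H1-4 (SE 0.12, adjusted p = 0.0484). These calls lie close to the threshold, and DESeq2 called 1. None remained without hydrocortisone replicate 3, its vehicle replicate 1 or 2, or dexamethasone vehicle replicate 3, and 1 without hydrocortisone replicate 2 or dexamethasone replicate 1. On day 6, without hormone, edgeR called 0 of 61 (0.773% of all genes) and DESeq2 0, with 2 at an unadjusted p under 0.05. The day 6 difference was −0.06 for H1-5 (95% interval −0.22 to 0.09) and −0.10 for H1-4 (−0.27 to 0.07), and for 59 of 61 members the interval lay within 1 log2 unit of 0. The high doses, 1 µM dexamethasone and 10 µM hydrocortisone, differ and are set side by side only: H1-5 changed by −0.40 and −0.23, H1-4 by −0.27 and −0.31, H1-2 by −0.34 and −0.22 (the last not past the test), and H2BC15 by −0.48 and −0.58.

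After 3 days without hormone, dexamethasone 1 µM still stood lower in 2 members. Against the mean of the 4 vehicle libraries of day 6, H1-5 and H2BC15 fell and none rose, where 10.2% of all genes were called (5.04% lower, 5.13% higher). H1-5 measured 186, 212 and 212 CPM, and the vehicles 213, 233, 224 and 298 CPM (log2 change −0.24, SE 0.07, edgeR adjusted p = 0.0314). H2BC15 measured 32.1, 36.1 and 36.9 CPM against 41.1, 46.1, 38.4 and 53.7 (−0.34, SE 0.10, edgeR adjusted p = 0.0267). The hormone libraries lay below all vehicles in both genes, narrowly so at the closest.

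H1-2 and H1-4 were also lower in every hormone library of day 6, at −0.30 (95% interval −0.52 to −0.09, adjusted p = 0.0621) and −0.22 (−0.38 to −0.06, adjusted p = 0.0690), which missed the threshold. The summed H1 class was 678, 739 and 748 CPM against 779 to 998 in the vehicles. Both calls were lost without hormone replicate 2 or without the vehicle of hydrocortisone 0.01 µM, the highest of the 4 for both, and H2BC15 also without hormone replicate 3 or the vehicle of dexamethasone 0.01 µM. Against its own single vehicle library H1-5 stood at −0.06 (adjusted p = 0.836).

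**Figure D5:**
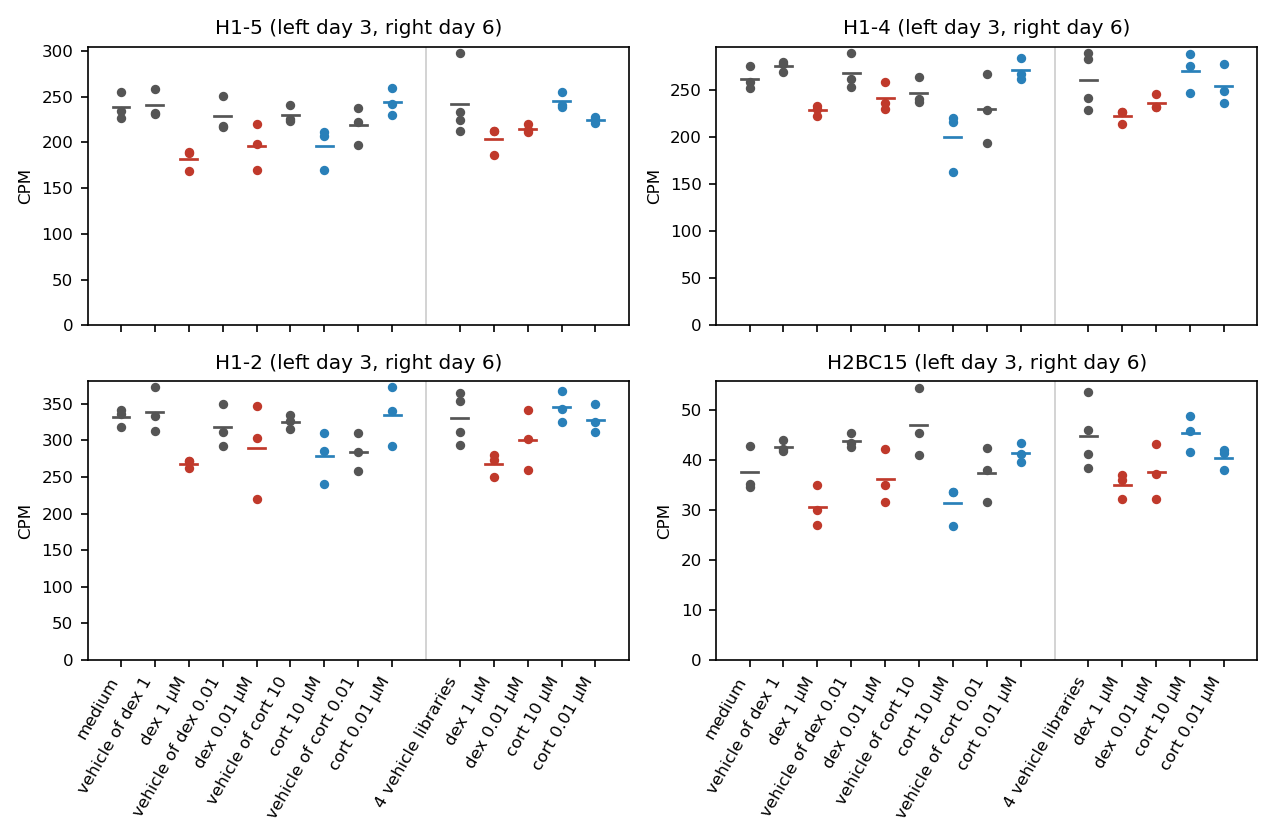
CPM of H1-5, H1-4, H1-2 and H2BC15 in every library (points, with short bars for group means), grouped by treatment, day 3 on the left and day 6 on the right, with axes from 0. H1-5 lies between 168 and 189 with dexamethasone 1 µM on day 3, against 230.5 to 258 in its vehicle.

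The other hormone doses called no member on day 6. For dexamethasone 0.01 µM, edgeR and DESeq2 each called 0 of 61 (0.0833% of all genes by edgeR), with 5 at an unadjusted p under 0.05 and a median of −0.08. For hydrocortisone 0.01 µM both also called 0 (0.0892%), with 5 at an unadjusted p under 0.05 and a median of −0.16. Hydrocortisone 10 µM on day 6 likewise gave 0 by edgeR and DESeq2 (0.892%). An unadjusted p under 0.05 was reached by 19 members, all higher, and by 11.2% of all genes, and 58 of 61 estimates lay above 0 with a median of 0.30 against 0.02 for all genes. As above, members that move together are not separate observations. Its summed members were 5194, 5233 and 4986 CPM, and the 4 vehicles ranged from 3752 to 5245 CPM. The smallest adjusted p was 0.115, for H2BC26 at 3.07, 3.63 and 2.95 CPM against 0.809 to 2.89 (0.78, 95% interval 0.30 to 1.27). Fitted on the 7 libraries of this comparison alone, 22 members and 1.97% of all genes were called.

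The change from day 3 to day 6, each taken against all vehicles of its day, passed for 3 of 61 members after hydrocortisone 10 µM (6.97% of all genes, 4.31% higher and 2.66% lower). It was 0.41 for H1-4 (SE 0.10, edgeR adjusted p = 0.00902), 0.69 for H3C1 (SE 0.19, adjusted p = 0.0165) and 0.47 for H2BC15 (SE 0.14, adjusted p = 0.0259). H3C1, an H3 gene of the major cluster, measured 10.97, 15.6 and 11.3 CPM on day 3 and 20.8, 19.99 and 19.2 CPM on day 6. H1-4 measured 275, 288 and 246 CPM on day 6 after 220.0, 216 and 162 on day 3. Without replicate 4 of day 3 no member passed, and without the day 6 vehicle of dexamethasone 1 µM 1 did. The count was 5 without hydrocortisone replicate 3 of day 3, vehicle replicate 1 of dexamethasone 1 µM on day 3 or the day 6 vehicle of hydrocortisone 0.01 µM. It was 6 without vehicle replicate 2 of dexamethasone 0.01 µM on day 3 or the day 6 vehicle of that dose. For dexamethasone 1 µM (1.69% of all genes), dexamethasone 0.01 µM (6.54%) and hydrocortisone 0.01 µM (0.00595%) edgeR called 0 members and DESeq2 0, with 0, 2 and 6 at an unadjusted p under 0.05. Without replicate 3 of dexamethasone 0.01 µM on day 3, 94.9% of it ribosomal RNA, 1 member passed for that dose. The change of H1-5 after dexamethasone 1 µM was 0.09 (95% interval −0.10 to 0.29).

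Members with known polyadenylated forms, a list of 6, were followed as well, since such forms are reported in non-dividing cells. Of these, 1 fell with dexamethasone 1 µM (H1-2) and 1 with hydrocortisone 10 µM (H2AC6) on day 3, where 12.3% and 7.51% of all genes fell, and none passed in the other hormone comparisons of either day. H2BC4, H2BC5, H2BC12 and H2BC21 gave −0.07, −0.27, −0.08 and 0.13 with dexamethasone 1 µM, and −0.31, −0.25, −0.28 and −0.40 with hydrocortisone 10 µM, none past the test. By the annotated AATAAA signal, 1 of 21 tested members with it and 3 of 38 with transcripts that lack it were called for dexamethasone 1 µM, and 2 of 21 and 3 of 38 for hydrocortisone 10 µM. H1-2, H2BC4 and H2BC12, on the list of 6, are among those without the signal in their annotated models. This split is therefore one of annotation and cannot separate polyadenylated members from the others.

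The factors that make, process and degrade histone mRNA were read from a list of 20 genes, all tested. With dexamethasone 1 µM on day 3 none rose and 3 fell, beside the 22.6% of all genes called. They were NCBP1 (−0.29) and NCBP2 (−0.30), subunits of the nuclear cap-binding complex, and ZNF473 (−0.30), a zinc finger protein of the U7 snRNP processing machinery. With hydrocortisone 10 µM 1 of 20 fell, beside 7.51% of all genes: SYMPK (−0.41, SE 0.14, edgeR adjusted p = 0.0448), the scaffold of the cleavage complex. In the other hormone comparisons none passed. SLBP, the stem-loop binding protein, gave −0.08 with dexamethasone 1 µM (95% interval −0.23 to 0.07), −0.09, −0.01 and −0.08 in the other day 3 comparisons, and stood at 64.9 ± 4.25 CPM in 12 vehicle libraries. NPAT gave −0.11 (−0.31 to 0.09) with dexamethasone 1 µM on day 3 and −0.26 (adjusted p = 0.0589) on day 6.

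Of a list of 12 histone variants that are not members, 2 were called with dexamethasone 1 µM on day 3 (22.6% of all genes) and 1 after hydrocortisone 10 µM on day 6 (0.892%). Dexamethasone raised MACROH2A1 (0.17), a large H2A variant, and lowered H3-3A (−0.27), which encodes H3.3, and hydrocortisone raised CENPA (0.39), the centromeric H3.

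Of 19 histone chaperones, 3 fell with dexamethasone 1 µM on day 3, beside 12.3% of all genes: HAT1 (−0.34), which acetylates new H4, NAP1L1 (−0.31), a carrier of H2A and H2B, and SSRP1 (−0.26), a subunit of FACT. At 0.01 µM 1 passed, NAP1L1 (−0.25), beside 14% of all genes. With hydrocortisone 10 µM 2 passed, beside 13.1%: SSRP1 fell (−0.21) and HJURP, the chaperone of CENPA, rose (0.20). After dexamethasone 1 µM on day 6 1 passed, beside 10.2%: CABIN1, of the HIRA complex, rose by 0.23.

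The S-phase and mitotic lists cover the phase in which the members are transcribed and the one after it. Of 31 DNA replication genes 6 fell and 1 rose with dexamethasone 1 µM on day 3, a share near the 22.6% of all genes called. The falls of smallest p were CDCA7 (−0.37), MCM6 (−0.23) and CDC6 (−0.20), and the rise was POLE (0.57), the leading-strand polymerase. POLE also rose at 0.01 µM (0.32), with GINS1 (0.41), while RFC2 fell (−0.33), 3 of 31 beside 14% of all genes. With hydrocortisone 10 µM only GINS1 of this list passed (0.38, beside 13.1% of all genes), and on day 6 after dexamethasone 1 µM POLE was higher (0.43) and RFC4 lower (−0.32), beside 10.2%. The median of the list with dexamethasone 1 µM was −0.11, beside −0.07 for the histone genes.

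Of 20 G2/M genes, dexamethasone 1 µM raised TOP2A (0.23) and lowered HMGB2 (−0.34) and ANLN (−0.22), 3 calls beside 22.6% of all genes, and 0.01 µM lowered AURKA (−0.25), beside 14%. Hydrocortisone 10 µM raised 4 and lowered none, beside 5.57% of all genes higher: TOP2A (0.30), a topoisomerase, CENPF (0.33), a kinetochore protein, KIF11 (0.20), a spindle motor, and KIF23 (0.19), a motor of cytokinesis. The median of the G2/M list there was 0.05, beside −0.25 for the histone genes and −0.07 for the replication genes. With hydrocortisone 0.01 µM, where no gene of the table passed, 1 gene of each list had an unadjusted p under 0.05. Whether the share of cells in each phase changed was not measured in these libraries.

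Markers of other cell types moved beside these calls. Of 8 fibroblast and pericyte markers tested on day 3, 4 rose and 2 fell with dexamethasone 1 µM, beside 22.6% of all genes called. With hydrocortisone 10 µM 2 rose and 2 fell, beside 13.1%. Decorin (DCN) rose in both (4.15 and 4.33), and vimentin (VIM) fell in both (−0.41 and −0.36). The list summed to 4949 to 5309 CPM without ribosomal RNA with dexamethasone 1 µM and 4486 to 4713 in its vehicle, which did not overlap, and to 4610.0 to 4981 against 4680.3 to 5159 with hydrocortisone 10 µM, which did. Of 3 astrocyte markers SLC1A3 rose and GJA1 fell in both, and ALDH1L1 fell with dexamethasone (−0.69). The endothelial marker KDR rose in both (2.40 and 2.77), in a list that summed to at most 1.88 CPM. With dexamethasone 0.01 µM on day 3, beside 14% of all genes, the called markers included PDGFRB, VIM, COL1A2, DCN, SLC1A3 and GJA1. Beside the day 6 calls of dexamethasone 1 µM, 3 fibroblast and pericyte markers rose, DCN (5.29), ACTA2 (1.53) and COL1A1 (0.44), and VIM fell (−0.16). There 10.2% of all genes were called. Of the astrocyte markers SLC1A3 rose (1.02), and GJA1 (−0.34) and ALDH1L1 (−0.66) fell. The microglia list summed to at most 2.10 CPM in any library. The part of these differences in the histone results was not tested.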

How the data were processed

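Total RNA of HMC3 flasks was sequenced as stranded paired-end libraries, per the labels' protocols. The authors deposited 1 table of raw read counts per gene, made with STAR and featureCounts of Subread on GRCh38, per the submitters' processing notes, which also list FastQC. How these were set is not given in the sources used here. Gene IDs got current symbols (19978) or, failing that, those of GENCODE v29 (70). H3C2 and H3C3 took positions and lengths from RefSeq.

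All 43 libraries entered one fit of 17 groups (edgeR 4.0.16, R 4.3.3, TMM, filterByExpr with minimum count 10 and total 15), which kept 16816 genes and left 26 residual degrees of freedom. The quasi-likelihood test was adjusted by Benjamini-Hochberg over all genes, at 0.05, in 18 comparisons, and intervals are 95%. The 4 single day 6 vehicle libraries are assumed to vary like the other groups. The script was tested on simulated data. DESeq2 1.42.0, RLE factors, no filter, other controls, removal of ribosomal genes or libraries, a replicate block, a fit of the compared groups alone and leaving out each library were alternatives.

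Members, lists, motifs and promoters shown were chosen with earlier results of these data known. Named are the 2 members per class with the highest level per kb, up to 4 called members with the smallest p per direction and comparison, up to 4 called genes per list, and SLBP, NPAT, TSC22D3, FKBP5 and the members with polyadenylated forms. H1-5 with hydrocortisone 10 µM on day 3, the last of 5 called members, and the values of H2AC15 and H2AC16 were added after their values were seen. Another gene of this rule is not reported here. Of the cell marker lists, 3 of 5 astrocyte, 3 of 5 neuron, 3 of 4 oligodendrocyte and 3 of 4 endothelial genes were analysed, with 3, 2, 2 and 0 at a median above 1 CPM.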

Additional observations from a re-analysis of the deposited data

Results flagged for a closer look

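The vehicle-corrected response to hydrocortisone differed between 10 and 0.01 µM on day 3 by the test of the difference itself (edgeR's quasi-likelihood test) for 4 members: H2BC15 (−0.73), H2AC6 (−0.61), H1-4 (−0.54) and H1-5 (−0.38), all in log2 units. Of all genes 4.09% were called in that comparison.

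At 0.01 µM on day 3 the vehicle-corrected responses to dexamethasone and hydrocortisone differed for 3 of 61 members, a share near the 4.98% of all genes called. The differences were −1.25 for H2BC26, −0.39 for H1-4 and −0.37 for H1-5 on the log2 scale. DESeq2 called 1 member, and leaving out single libraries gave 0 to 3.

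The response to hydrocortisone 10 µM differed between day 6, after washout, and day 3 for 3 of 61 members, where 6.97% of all genes were called, by 0.69 (H3C1), 0.47 (H2BC15) and 0.41 (H1-4) in log2 units. Replicate 4 of day 3 had the lowest sum of all members of the 43 libraries, and without it none of the 3 passed.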

How the results depend on the processing

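Apart from leaving out a library, 130 recomputed counts of called members stayed within 1.5 times and 26 did not. Most of the counts that stayed were 0, in comparisons where the main fit called no member. Nearly all that moved belong to the comparisons with a call, so the 130 are no measure of how stable the calls were. For dexamethasone 1 µM on day 3 (4 called), the compared groups alone gave 13. For dexamethasone 0.01 µM on day 3 (1 called), RLE factors, no low-count filter, the replicate block and the compared groups alone gave 0, and leaving out libraries over 75% ribosomal RNA or using medium as control gave 2. For hydrocortisone 10 µM on day 3 (5), no filter or no ribosomal genes gave 3, medium 2, and no libraries over 75% or the compared groups alone 1. With medium the estimate of H2AC21 reversed to 0.0184. For dexamethasone 1 µM on day 6 (2) the values were 4 without libraries over 75%, 1 with its own vehicle and 6 with the compared groups alone, and for hydrocortisone 10 µM on day 6 (0) the last gave 22. The hydrocortisone dose difference (4) fell to 2 without libraries over 75%. The matched-dose difference on day 3 (3) fell to 1 with no filter, no ribosomal genes or DESeq2, and to 0 with the replicate block or the compared groups alone. The washout change of dexamethasone 0.01 µM (0) gave 1 without libraries over 75%, and that of hydrocortisone 10 µM (3) gave 6 without ribosomal genes, 6 with the replicate block and 8 with DESeq2. For most of these settings the share of all genes called is not given here, so the changed counts cannot be set against it. Apart from the construction of these settings, the cause was not tested.

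Leaving out each library gave 2 to 4 calls for dexamethasone 1 µM and 0 to 3 for 0.01 µM on day 3, 1 to 6 for hydrocortisone 10 µM on day 3, 0 to 3 for dexamethasone 1 µM on day 6, 2 to 7 for the hydrocortisone dose difference, 0 to 3 for the matched-dose difference on day 3, 0 to 1 for the washout change of dexamethasone 0.01 µM and 0 to 6 for that of hydrocortisone 10 µM. In the other 10 comparisons it gave 0. Same-numbered libraries did not deviate together (median r 0.00 over 178 pairs, 10 of them over 0.1). For day 3 and day 6 libraries of one hormone dose the median r was 0.06 over 12 pairs, 1 of them over 0.1, against −0.03 for other numbers, so the numbers are not read as pairs.

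Too few counts kept H1-1, H2AC17 and H2BC3 out of the tests. H2AC17 shares 346 of its 393 exon bases with H3C12 on the same strand, and the part of this overlap in its low count was not tested. The median half-width of the 95% interval was 0.38 on the log2 scale for each day 3 dose against its vehicle, so changes below that size were often not detectable.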
